A study of Mus musculus with 48 samples.

Results

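AMPA and NMDA receptors carry most of the fast excitatory transmission of the brain. AMPA receptors are assembled from the subunits encoded by Gria1, Gria2, Gria3 and Gria4, open within milliseconds of glutamate release, and set the strength of a synapse by their number. NMDA receptors pair the obligatory subunit encoded by Grin1 with subunits encoded by Grin2a to Grin2d or Grin3a, need glutamate, a co-agonist and depolarisation to open, and admit the calcium that starts synaptic plasticity. The genes described here are these 10 subunit genes, chosen by symbol among the 48709 Ensembl gene identifiers of the count tables. All 10 had a count in every comparison and passed the filter on low counts in every comparison.

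RNA of male C57BL/6J mice was sequenced in 8 groups, with 48 libraries from 46 mice. In the dentate gyrus, 5 Fmn2+/+ and 5 Fmn2-/- mice were sampled at 3 months of age, and 3 Fmn2+/+ and 5 Fmn2-/- mice at 8 months. Fmn2 encodes Formin 2, an actin-nucleating protein, and the Fmn2-/- mice lack it constitutively. A further 7 mice labelled FMN2-/-_APP and 9 mice labelled FMN2 +/+ APP were 3 months old, came from a cross, and all carried an amyloid transgene, APP in the labels, that the Thy1 promoter drives in neurons. The last 6 mice with that transgene, labelled APP, and 6 wild-type mice were 4 months old per the labels, and their titles name the prefrontal cortex whereas their tissue field names the dentate gyrus. In such bulk tissue, fewer cells of a type and less RNA per cell cannot be told apart.

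Fmn2 was checked first, because it is the targeted gene. Its level was 102.5 ± 7.35 CPM (counts scaled to library size; SD, n = 5) in Fmn2+/+ and 24.8 ± 2.39 (n = 5) in Fmn2-/- mice at 3 months, and 90.9 ± 15.1 (n = 3) against 24.3 ± 2.68 (n = 5) at 8 months. In the cross the levels went against the labels, with 90.9 ± 6.86 (n = 7) in mice labelled FMN2-/-_APP and 20.5 ± 1.48 (n = 9) in mice labelled FMN2 +/+ APP. No direction in the cross can therefore be tied to a genotype, and its groups are called by their labels throughout. The 12 libraries titled prefrontal cortex had summed granule cell markers of 155 to 216 CPM, against 705 to 1332 in the other mice, and summed cortical neuron markers of 752 to 853 CPM, against 223 to 470. These markers go with the titles and against the tissue field. In the mouse labelled FMN2-/-_APP replicate 7, Slc17a6, a vesicular glutamate transporter, stood at 153 CPM against at most 16 in the other mice of the cross, and Tcf7l2 at 43.7 against at most 5.60. Both genes were chosen after their values were seen. The Fmn2-/- replicates 2 and 3 at 8 months were more alike than other pairs of that group, with a chi-square per degree of freedom of 1.62 against 3.502 to 6.399 in the other pairs. The 2 mice with a repeat run gave 1.72 and 2.15 between their runs. The labels give replicates 2 and 3 as separate mice, so they were counted as 2, which this measure cannot settle, and values with both summed into 1 are given where they bear on a result. P-values measure only the spread between these samples. Outside the 8-month groups, each mouse had 16479658 to 42177775 reads on genes.

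The pore loop of each subunit lines the channel, and the exon is shown for 8 of the 10 genes because 1 codon in it governs calcium entry. In AMPA receptor subunits the exon holds the codon of the Q/R site, at which RNA editing in Gria2 transcripts controls calcium entry, and in NMDA receptor subunits the asparagine codon that controls calcium entry and magnesium block. The coding stretches around these codons are given from GENCODE M21 transcripts with their positions in GRCm38, the 4 AMPA genes first. The capitals mark the codon of the site.
Gria1, exon 11 at chr11:57243070-57243117, plus strand: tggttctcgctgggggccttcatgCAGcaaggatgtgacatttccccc
Gria2, exon 11 at chr3:80706890-80706937, minus strand: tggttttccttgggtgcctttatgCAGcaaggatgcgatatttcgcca
Gria3, exon 11 at chrX:41610241-41610288, plus strand: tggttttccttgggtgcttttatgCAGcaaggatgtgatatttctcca
Gria4, exon 12 at chr9:4464116-4464163, minus strand: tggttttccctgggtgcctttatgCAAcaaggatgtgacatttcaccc
In the genome all 4 genes carry a glutamine codon at the site. Over these 48 bases, Gria2 and Gria3 matched at 45 positions, the most of any AMPA pair, and Gria1 matched Gria2 and Gria3 at 39 each. The deposited counts hold no sequence, so the edited share of Gria2 transcripts was not measured.

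The NMDA genes are shown at the matching site. The stretch of Grin1, the subunit in every NMDA receptor, is 42 bases long and those of the glutamate-binding subunits Grin2a, Grin2c and Grin2d 51.
Grin1, exon 13 at chr2:25297371-25297412, minus strand: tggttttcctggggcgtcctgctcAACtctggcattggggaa
Grin2a, exon 8 at chr16:9653537-9653587, minus strand: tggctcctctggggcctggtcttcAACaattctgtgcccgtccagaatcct
Grin2c, exon 9 at chr11:115253839-115253889, minus strand: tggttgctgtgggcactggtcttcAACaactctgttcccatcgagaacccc
Grin2d, exon 8 at chr7:45854369-45854419, minus strand: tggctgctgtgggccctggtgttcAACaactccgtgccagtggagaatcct
Among these 3 Grin2 genes, the stretches matched at 40 to 42 of 51 positions. The genes differ more in base composition, which matters for the counts below. The GC content of the coding sequence was lowest in Gria2, at 44.7%, and highest in Grin2c and Grin2d, at 62.4% and 67.3%. Over the longest annotated transcript of each gene it ran from 36.8% in Gria2 to 65% in Grin2d, with 59.4% in Grin1 and 62.1% in Grin2c. Whether counting used strand is not given in the sources used here. Without strand, reads of Grin1 and its antisense gene Grin1os, which share 1307 exon bases, cannot be told apart, nor can those of Grin2d and the antisense Gm45441, which share 643, so the values of both genes are uncertain to that extent.

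Levels of different subunits were compared per kilobase of annotated exon, on CPM set to one scale over the 46 mice. In the dentate gyrus of 3-month-old Fmn2+/+ mice, Gria1 was the most abundant, at 198 ± 17.2 CPM per kb (SD, n = 5), and made up 64.1% of the summed level of the AMPA genes. Gria2 followed at 69.9 ± 2.57 CPM per kb, or 22.6%. Gria3 and Gria4 held 9.17% and 4.11%. Among NMDA genes, Grin1 led with 24.9 ± 1.20 CPM per kb, or 34.1% of the NMDA sum. Grin2b and Grin2a, the main glutamate-binding subunits of the forebrain, were close to each other at 19.3 ± 1.27 and 18.4 ± 1.5 CPM per kb, with no difference beyond their spread. Grin2c held 7.54%, Grin3a, whose subunit lowers calcium entry, 5.07%, and Grin2d 1.69% of the NMDA sum. The annotated exons of a gene can be longer than the transcripts a tissue expresses, which lowers the level per kb of Gria2 and Grin2b, with 15548 and 24842 exon bases, more than that of Gria1 with 6043.

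**Figure D1:**
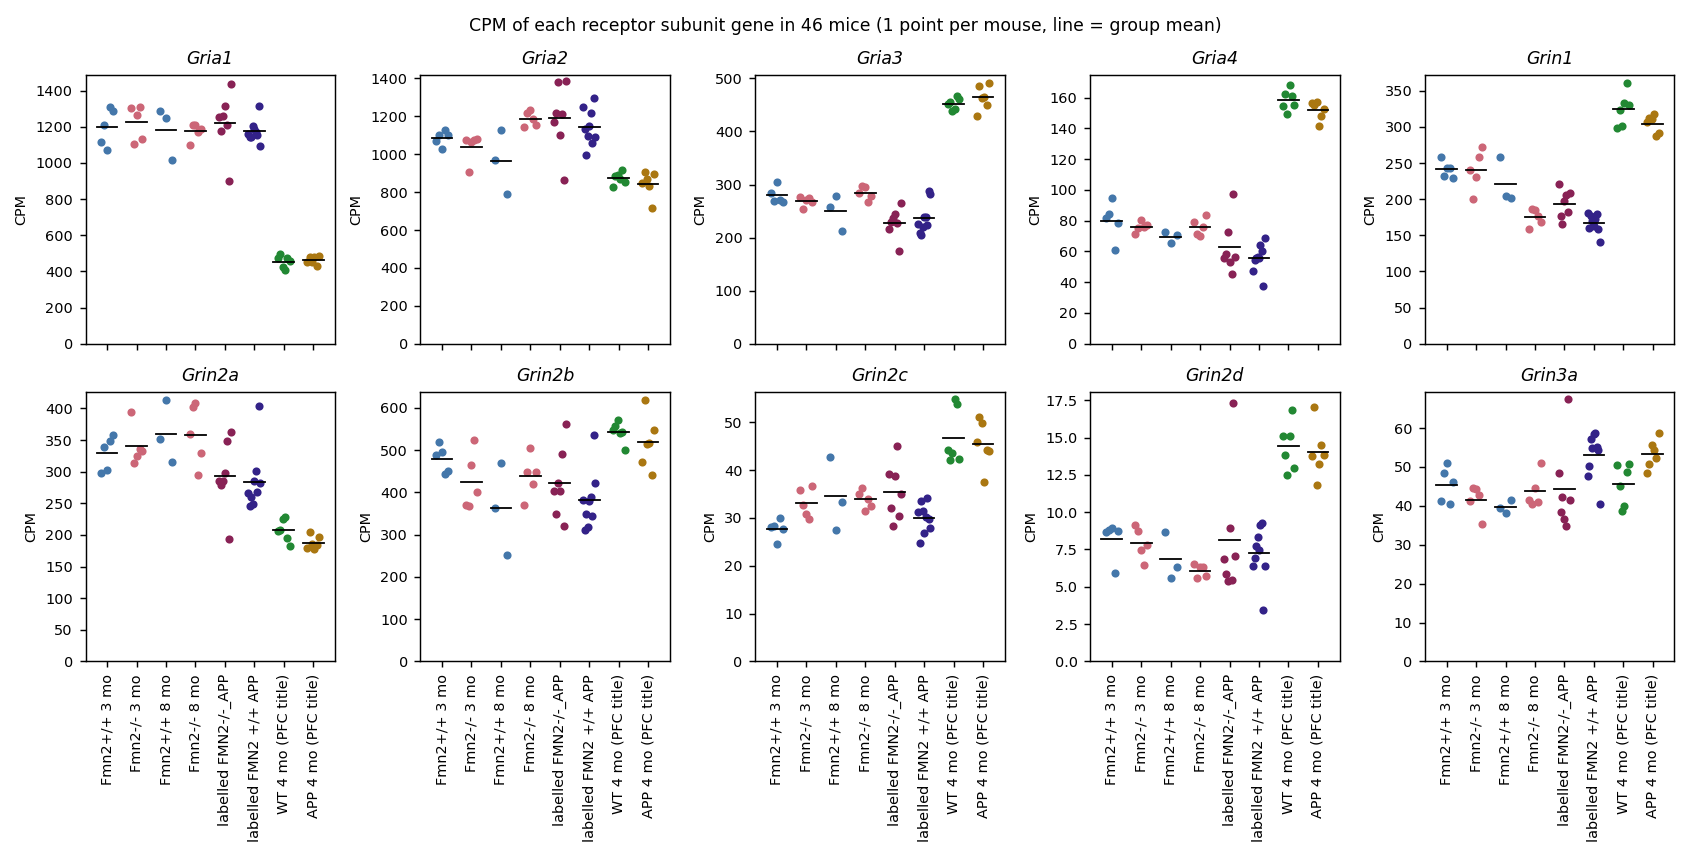
CPM of each of the 10 subunit genes by group, 1 point per mouse with a line at the group mean. Gria1 lies between 899 and 1437 CPM in all 34 dentate gyrus mice and between 406 and 494 CPM in the 12 mice titled prefrontal cortex, while the group means of Grin3a differ by at most 1.35 times.

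Across the 8 groups, Gria4, Gria1 and Grin2d varied most, with the highest group mean 2.86, 2.69 and 2.37 times the lowest. Grin3a and Gria2 varied least, at 1.35 and 1.41 times. When the group means of a gene were put in order, neighbouring groups separated without overlap in 6 genes, Gria1, Gria3, Gria4, Grin1, Grin2a and Grin2d, and in each of them only where the order crossed from dentate gyrus to prefrontal cortex titles. In Gria2, Grin2b, Grin2c and Grin3a, each group overlapped its neighbour in the order.

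The difference between dentate gyrus and the samples titled prefrontal cortex was the largest the subunit genes showed. It was compared in wild-type mice, as 6 mice of 4 months against the 5 Fmn2+/+ mice of 3 months, and in APP mice, as 6 mice of 4 months against the 16 mice of the cross. Tissue, experiment and age changed together in both, so they cannot be told apart, and in the APP mice the Fmn2 level changed as well, since 9 of the 16 mice of the cross had a low one. A gene was called where edgeR's quasi-likelihood test gave a Benjamini-Hochberg adjusted p under 0.05 over all genes tested. In wild-type mice 9 of the 10 genes were called, 6 higher and 3 lower under the prefrontal cortex titles, against 74.7% of the 16661 genes tested. In APP mice 9 of 10 were called, again 6 higher and 3 lower, against 71.7% of 17570 genes. A share of 9 in 10 is thus near that of genes at large.

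The AMPA genes split by subunit. Gria1 read 1114, 1207, 1071, 1307 and 1289 CPM in the 5 Fmn2+/+ mice at 3 months. Under the prefrontal cortex titles the 6 wild-type mice had a lowest value of 406, a median of 463 and a highest of 494 CPM. The groups lay far apart, and Gria1 fell by 1.45 on the log2 scale (SE 0.0619; edgeR adjusted p = 5.11e-11). Gria2, whose subunit makes the receptor calcium-impermeable after editing, read 1070, 1103, 1025, 1129 and 1103 CPM against a lowest of 828, a median of 877 and a highest of 916. It also fell, but by 0.36 (SE 0.0396; edgeR adjusted p = 9.09e-07). Gria3 and Gria4 went the other way. Gria3 read 284, 269, 305, 271 and 268 CPM against a lowest of 439, a median of 454 and a highest of 466, a rise of 0.65 (SE 0.0399; edgeR adjusted p = 1.97e-09). Gria4, whose subunit has fast kinetics and is prominent in interneurons, read 81.7, 84.3, 94.7, 60.9 and 78.7 CPM against 150, 158 and 168 as the lowest, median and highest value, a rise of 0.94 (SE 0.0830; edgeR adjusted p = 9.69e-08). No mouse of one tissue title overlapped the other in any of these 4 genes. Per kb, Gria1 came to 37.1% of the AMPA sum under the prefrontal cortex titles, Gria2 to 27.8%, Gria3 to 22.7% and Gria4 to 12.4%, and the AMPA sum itself was 202 ± 6.99 CPM per kb (n = 6) against 309 ± 16.7 (n = 5).

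Among the NMDA genes, Grin2a fell and most of the others rose. Grin2a, the subunit that shortens NMDA currents as the brain matures, read 298, 339, 303, 348 and 358 CPM in the Fmn2+/+ mice against a lowest of 182, a median of 207 and a highest of 228, a fall with a log2 value of -0.71 (SE 0.0680; edgeR adjusted p = 2.09e-07). Grin1 read 259, 233, 243, 244 and 229 CPM against 299, 327 and 362, a rise of 0.38 (SE 0.0504; edgeR adjusted p = 7.51e-06). The Grin1 groups did not overlap, but its direction turned with a correction for GC content and length, to -0.14 with an edgeR adjusted p of 0.00154. Grin2c rose by 0.71 (SE 0.0828; edgeR adjusted p = 1.89e-06) and Grin2d by 0.76 (SE 0.110; edgeR adjusted p = 1.75e-05). Both lost the call with that correction, at 0.15 and 0.19. Grin2b, with 444 to 519 CPM against 500 to 571, overlapped between the groups and rose by 0.13 (SE 0.0495; edgeR adjusted p = 0.0259). Its call was lost when the Fmn2+/+ replicate 4 or 5 was left out. Grin3a read 40.5 to 50.9 CPM in one tissue and 38.8 to 50.7 in the other and was not called, with a difference of -0.043 (95% interval -0.20 to 0.11; edgeR adjusted p = 0.636). Without overlap between the groups were 8 of the 10 genes, against 58.2% of all genes tested.

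**Figure D2:**
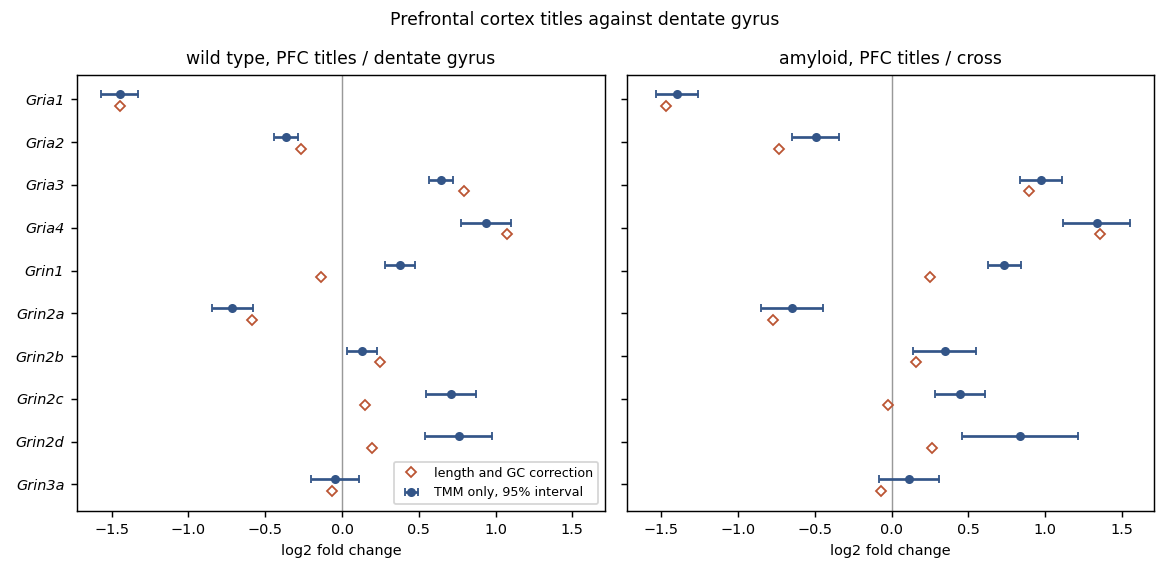
Log2 fold change of each subunit gene, prefrontal cortex titles over dentate gyrus, in wild-type mice and in APP mice. Dots with 95% intervals are without, diamonds with a correction for GC content and length. Among the dots, Gria1, Gria2 and Grin2a lie below 0 and Gria3, Gria4, Grin1, Grin2b, Grin2c and Grin2d above 0 in both. The interval of Grin3a spans 0. Among the diamonds, Grin1 lies at -0.14 in wild-type mice and Grin2c at -0.021 in APP mice.

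Before a correction for GC content and length, the APP mice gave the same 9 genes in the same directions. Gria1 ran from 899 to 1437 CPM in the 16 mice of the cross and from 432 to 487 in the 6 APP mice titled prefrontal cortex, and it fell by 1.40 on the log2 scale (SE 0.0686; edgeR adjusted p = 2.40e-14). Gria4 rose by 1.34 (edgeR adjusted p = 2.31e-10), Gria3 by 0.97 (edgeR adjusted p = 2.10e-11) and Grin1 by 0.73 (edgeR adjusted p = 4.06e-11). These 4 genes had no overlap between the groups, against 34% of all genes tested. Gria2 and Grin2a fell, with log2 values of -0.50 and -0.65, and in both the cross overlapped the other tissue only through the mouse labelled FMN2-/-_APP replicate 7, at 865 and 194 CPM. The next lowest values of the cross were 997 and 246 CPM, above the highest of the other tissue, 905 and 205. Grin3a, with a difference of 0.11 (edgeR adjusted p = 0.327), passed the test without the mouse labelled FMN2-/-_APP replicate 7, at 0.18 (edgeR adjusted p = 0.0276). With the GC and length correction 6 genes were called, and Grin2b and Grin2d lost their call at 0.16 and 0.26, as did Grin2c at -0.021. The corrected Grin1 value stayed above 0 in APP mice, at 0.25 (edgeR adjusted p = 1.25e-05). In wild-type mice it was -0.14 (edgeR adjusted p = 0.00154), so its corrected calls go in opposite directions. The lists of granule cell markers moved with these differences, with 8 of 8 lower in both comparisons at a median log2 value of -4.33 and -4.51. The part of cell type composition in the subunit differences was not tested.

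Genes that work with the receptors also split in direction between the tissues. Of 16 auxiliary and trafficking genes of AMPA receptors tested in wild-type mice, 7 rose and 7 fell. Shisa6, an auxiliary subunit that slows desensitisation, fell with a log2 value of -4.13, and Cnih2, which carries AMPA receptors out of the endoplasmic reticulum, with -1.07. Cacng3, a stargazin-like auxiliary subunit, and Gsg1l, which dampens AMPA currents, rose by 1.01 and 0.996. Of 20 genes of postsynaptic scaffolds and NMDA receptor partners, 10 rose and 9 fell. Homer3, a scaffold that links receptors to calcium stores, had the largest fall of that list, -2.97, and Grip2, which binds the tails of AMPA subunits, the largest rise, 2.42. Of 7 kainate and delta receptor genes 3 rose and 2 fell, led by Grik3 with 1.58 and Grik2 with -1.04. Of 7 metabotropic glutamate receptor genes 3 rose and 3 fell, led by Grm8 with 1.66. In APP mice the counts were 7 and 6 for the auxiliary genes, 12 and 5 for the scaffolds, 3 and 3 for kainate and delta, and 3 and 2 for metabotropic receptors. All of these calls stand beside the background of 74.7% and 71.7%.

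Within a library, ratios between subunit genes need no scaling across libraries. The log2 ratio of Grin2a to Grin2b read counts, which rises as synapses mature in many brain regions, averaged -0.54 (-0.71 to -0.33) in Fmn2+/+ mice at 3 months and -1.39 (-1.47 to -1.25) in wild-type mice titled prefrontal cortex. Every dentate gyrus mouse lay above every mouse titled prefrontal cortex. The mean was -0.31 in Fmn2-/- mice at 3 months, 0.030 in Fmn2+/+ and -0.29 in Fmn2-/- mice at 8 months. The Fmn2+/+ mice of 3 and 8 months did not overlap, but lane and depth differed along with age, so these cannot be told apart. At each age Fmn2+/+ and Fmn2-/- mice overlapped. The log2 ratio of Gria1 to Gria2, the balance of the main AMPA subunits, averaged 0.14 in Fmn2+/+ mice at 3 months and -0.95 (-1.10 to -0.81) under the prefrontal cortex titles. At 8 months it ran from 0.15 to 0.41 in the 3 Fmn2+/+ mice and from -0.057 to 0.036 in the 5 Fmn2-/- mice, and these groups did not overlap. With the GC and length correction they ran from 0.23 to 0.35 and from 0.062 to 0.22. These are ratios of reads, not of molecules, because the transcripts differ in length.

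**Figure D3:**
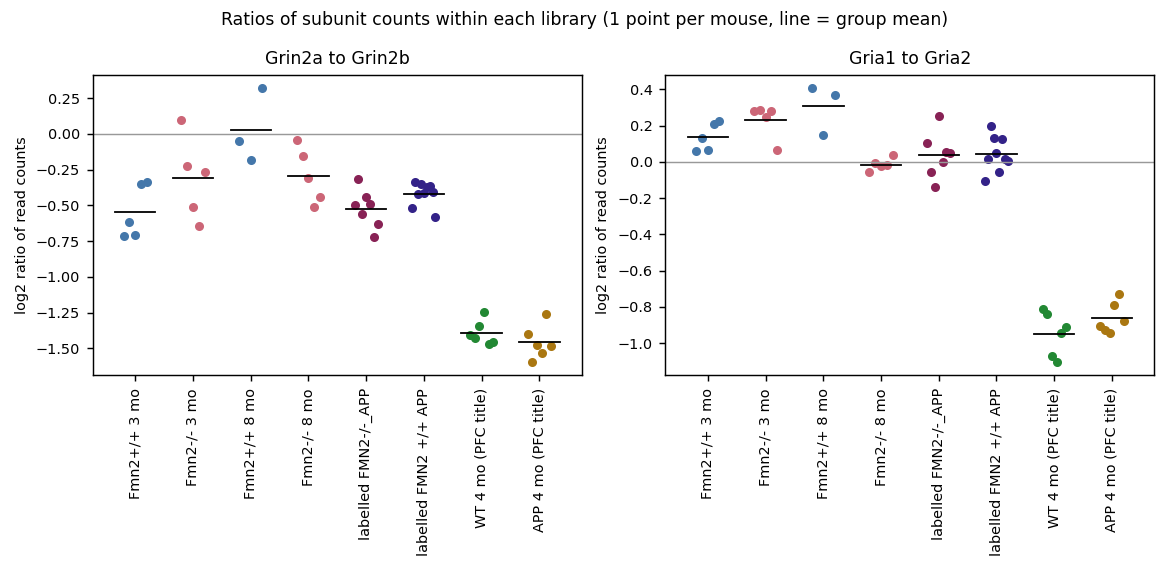
Log2 ratio of read counts within each library for Grin2a to Grin2b and for Gria1 to Gria2, 1 point per mouse with a line at the group mean. The 12 mice titled prefrontal cortex lie below all 34 dentate gyrus mice in both ratios, and at 8 months the Gria1 to Gria2 ratio of Fmn2-/- mice lies below that of Fmn2+/+ mice.

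The loss of Fmn2 at 3 months left no subunit gene past the test. Of the 10 genes 0 were called by edgeR's quasi-likelihood test, 1 had an unadjusted p under 0.05 and 0 were called by DESeq2. Of the 16630 genes tested, edgeR called 0.0301%, 10.5% had an unadjusted p under 0.05 and DESeq2 called 0.962%. Grin2c, whose subunit is best known from cerebellar granule cells and astrocytes, had the largest difference. It read 28.1, 28.2, 24.5, 29.9 and 27.8 CPM in Fmn2+/+ and 35.9, 32.6, 30.8, 29.9 and 36.8 CPM in Fmn2-/- mice. The groups overlapped at 1 pair of values, and the difference of 0.26 (SE 0.0775; 95% interval, without adjustment, 0.11 to 0.41) had an edgeR adjusted p of 0.287. Grin2b read 489, 519, 495, 444 and 451 CPM against 370, 367, 464, 523 and 400, a difference of -0.18 (SE 0.0934; edgeR adjusted p = 0.524). For the other 8 genes the differences lay within 0.14 of 0 in log2 terms, with edgeR adjusted p from 0.576 upwards. None of the 10 genes separated the groups without overlap, against 2.64% of all genes. All Fmn2+/+ libraries and the Fmn2-/- replicate 1 were sequenced in lane 5 and the other Fmn2-/- libraries in lane 6. With lane as a term, the difference of Grin2c was 0.38 (edgeR adjusted p = 0.193). A correction for GC content and length lowered it to 0.175 (edgeR adjusted p = 0.605), and a block on replicate number to 0.168 (edgeR adjusted p = 0.984).

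At 8 months Grin1 and Gria2 were the genes whose groups did not overlap, and neither was called in the fit of that age. Grin1 read 259, 205 and 201 CPM in Fmn2+/+ and 159, 187, 185, 176 and 168 CPM in Fmn2-/- mice. No value overlapped, and the difference was -0.34 (SE 0.0916; edgeR adjusted p = 0.0779). Gria2 read 970, 1127 and 789 CPM in Fmn2+/+ against 1143, 1215, 1234, 1188 and 1155 CPM in Fmn2-/- mice. It did not overlap either, with a difference of 0.31 (SE 0.0989; edgeR adjusted p = 0.110). These 2 genes of 10 compare with 11.7% of all genes without overlap. Gria3, at 258, 278 and 212 CPM against 284, 297, 296, 268 and 279 CPM, had a difference of 0.20 (SE 0.0878; edgeR adjusted p = 0.203) and overlapped. Grin2b and Grin2d differed by 0.28 (SE 0.160; edgeR adjusted p = 0.305) and -0.23 (SE 0.157; edgeR adjusted p = 0.396), with overlap. Gria1 and Grin2a differed by -0.0032 and 0.00080 on the log2 scale, with 95% intervals of -0.16 to 0.16 and -0.23 to 0.23.

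Of the 10 genes 0 were called at 8 months by edgeR, against 1.13% of the 14665 genes tested. An unadjusted p under 0.05 was seen in 3, Gria2, Gria3 and Grin1, against 23.3% of all genes, and DESeq2 called 2, Gria2 and Grin1, against 5.28% of all genes. The 3 Fmn2+/+ libraries decided much of this. They held 43921030, 6818809 and 8381078 reads on genes, against 9175551 to 11675280 in Fmn2-/- mice, and the deepest was the only library of that age in lane 6. Without it, within lane 7 alone, Gria2 differed by 0.31 (edgeR adjusted p = 0.393) and Grin1 by -0.21 (edgeR adjusted p = 0.398). Without the Fmn2+/+ replicate 2, in contrast, 4 genes were called by edgeR, Gria2 at 0.44 (adjusted p = 0.00360), Grin1 at -0.39 (adjusted p = 0.0135), Gria3 at 0.28 and Grin2b at 0.51, in a fit that called 22.7% of all genes. Without replicate 3 Gria2 stood at 0.19 (edgeR adjusted p = 0.203), Grin1 at -0.40 (edgeR adjusted p = 0.0559) and Grin2b at 0.083. With the alike Fmn2-/- replicates 2 and 3 summed, Gria2 stood at 0.29 (edgeR adjusted p = 0.199) and Grin1 at -0.37 (edgeR adjusted p = 0.131). Among cell type markers at this age, the granule cell gene C1ql2 fell, with a log2 value of -0.65 (edgeR adjusted p = 0.0434), and the median of the 8 granule cell markers was 0.010. The astrocyte water channel gene Aqp4 rose by 0.46 (edgeR adjusted p = 0.0459), with 5 of 6 astrocyte markers higher. Both calls were lost with the GC and length correction, with C1ql2 at -0.31 (edgeR adjusted p = 0.165) and Aqp4 at 0.31 (edgeR adjusted p = 0.141). They were also lost with lane, at edgeR adjusted p of 0.319 and 0.324, and with replicates 2 and 3 summed, at 0.108 for both. At 8 months the lane term only takes out the deepest Fmn2+/+ library, so it is no check apart from leaving out that mouse. All 6 oligodendrocyte markers were lower at a median of -0.22 with 0 called, and summed to 1935 to 2748 CPM in Fmn2-/- against 2590 to 3302 CPM in Fmn2+/+ mice. Their part in the subunit differences was not tested.

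**Figure D4:**
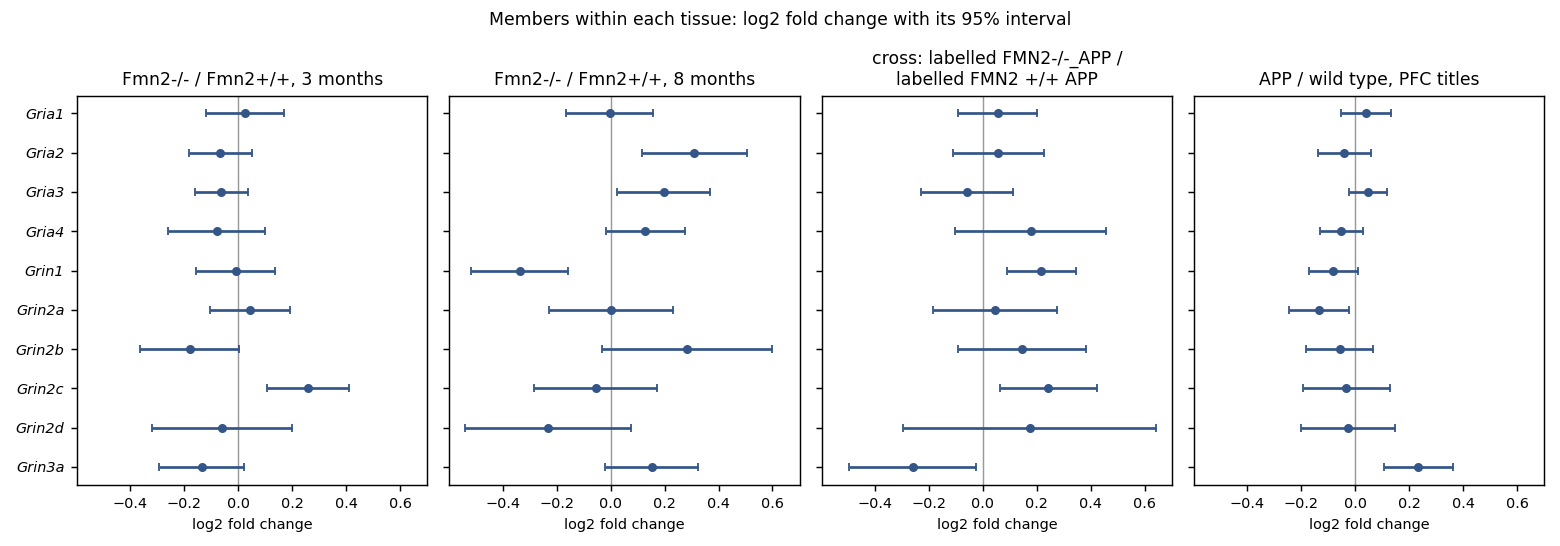
Log2 fold change of each subunit gene with its unadjusted 95% interval in the 4 comparisons within a tissue. No gene was called by edgeR in any panel, and the intervals that lie farthest from 0 are those of Grin1 and Gria2 at 8 months.

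The 8-month differences ran with the GC content of the genes. Over all genes tested, Spearman's rho between the GC content of the longest transcript and the log2 difference was -0.44 at 8 months and 0.33 at 3 months. Over the 10 subunit genes Pearson's r was -0.84 and 0.45, as a description of genes that share the same libraries. AT-rich Gria2 and Gria3 lay at the upper end and GC-rich Grin1 and Grin2d at the lower end of the 8-month differences. After a correction of each library for GC content and length, Gria2 stood at 0.098 (edgeR adjusted p = 0.430) and Grin1 at -0.25 (edgeR adjusted p = 0.0962).

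**Figure D5:**
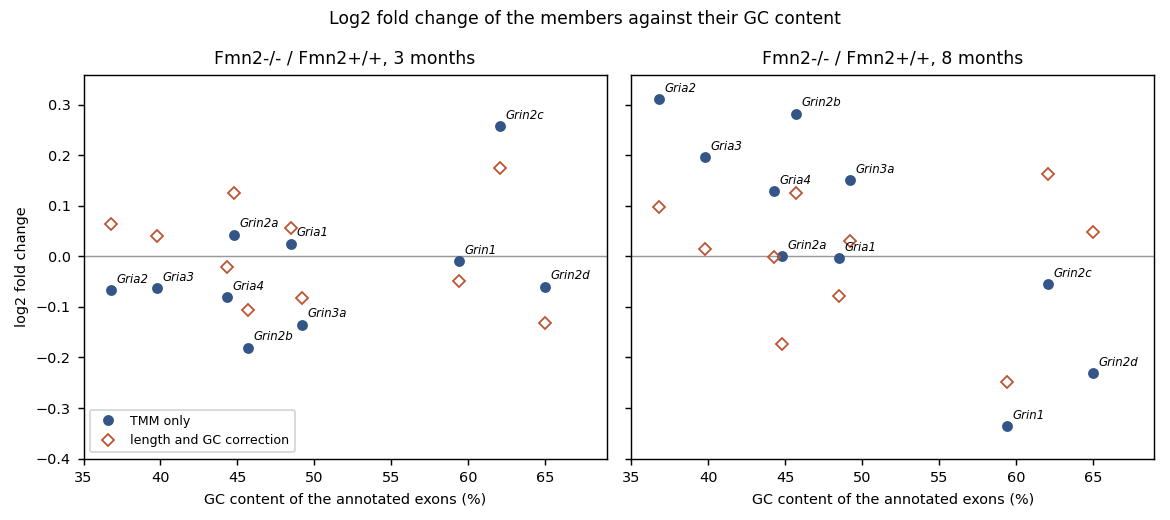
Log2 fold change of the 10 subunit genes against GC content at 3 and 8 months, without and with a correction of each library for GC content and length. GC content is that of the longest annotated transcript of each gene, though the axis names annotated exons. At 8 months Gria2 with 36.8% GC is highest at 0.31 and Grin1 with 59.4% GC is lowest at -0.34 without the correction, and Gria2 lies at 0.098 with it.

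Whether the effect of Fmn2 differed between the ages was tested by an interaction in one fit of the 18 mice, which share their samples with the 2 comparisons above. Of the 10 genes 0 were called by edgeR, against 3.73% of 17046 genes, 6 had an unadjusted p under 0.05, against 22.9%, and DESeq2 called 1, Gria2, against 8.54%. Gria2 had an interaction of 0.37 (SE 0.112; edgeR adjusted p = 0.0661) and Grin1 of -0.34 (SE 0.123; edgeR adjusted p = 0.109). With the GC and length correction the value of Gria2 was 0.011. Among partner genes, edgeR called 3 auxiliary genes with a lower interaction, Prrt1 at -0.72, Cnih2 at -0.62 and Porcn at -0.45, 1 kainate receptor gene, Grik5 at -0.40, 1 metabotropic receptor gene, Grm2 at -0.78, and 1 scaffold gene, Dlg4, which encodes PSD-95, at -0.28. Prrt1 and Grm2 were also called within 8 months, at -0.67 (edgeR adjusted p = 0.03) and -0.57 (edgeR adjusted p = 0.0378). These calls were lost with replicates 2 and 3 summed, where the edgeR adjusted p was 0.0936 for Prrt1 and 0.108 for Grm2. They were also lost with lane, where it was 0.258 and 0.305, but lane within 8 months only takes out the Fmn2+/+ library of lane 6. With the GC and length correction the 8-month values were -0.37 (edgeR adjusted p = 0.0562) and -0.47 (edgeR adjusted p = 0.0467). In the interaction, that correction left Prrt1 at -0.31 (edgeR adjusted p = 0.322) and Cnih2 at -0.20 (edgeR adjusted p = 0.536). Grik5, at -0.109 (edgeR adjusted p = 0.605), and Grm2, at -0.602 (edgeR adjusted p = 0.161), also lost their calls. So did Porcn, at -0.273. Dlg4 kept its call, at -0.49 (edgeR adjusted p = 0.0402). Of 8 alternative settings, Cnih2 was called in 5, Prrt1 in 4, Porcn and Grm2 in 3, Dlg4 in 2 and Grik5 in 1. Of 18 fits with 1 mouse left out, Cnih2 was called in 17 and Prrt1 in 9. Porcn was called in 5 of them, Grm2 and Grik5 in 3 and Dlg4 in 2. No gene of these 4 lists was called at 3 months, where edgeR called 0.0301% of the 16630 genes tested.

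In the cross, 0 of the 10 genes were called by edgeR between mice labelled FMN2-/-_APP and mice labelled FMN2 +/+ APP, against 1.57% of 16656 genes. An unadjusted p under 0.05 was seen in 3, Grin1, Grin2c and Grin3a, against 16.6% of all genes, and DESeq2 called 1, Grin1, against 4.44%. Grin1 had a lowest value of 165, a median of 198 and a highest of 220 CPM in the 7 mice labelled FMN2-/-_APP, and of 141, 170 and 181 in the 9 mice labelled FMN2 +/+ APP. The groups overlapped, and the difference of 0.22 (SE 0.0652) had an edgeR adjusted p of 0.0991. Mice labelled FMN2-/-_APP are those with the high Fmn2 level. Grin3a read 34.9, 41.6 and 67.6 CPM against 40.6, 55.0 and 58.9. The highest value came from replicate 7, the library with the highest Slc17a6 and Tcf7l2. With it the difference was -0.26 (SE 0.120; edgeR adjusted p = 0.289). Without it the difference was -0.40 and edgeR called Grin3a (adjusted p = 0.0256), and Grin2d turned from 0.17 to -0.14. None of the 10 genes separated the groups without overlap, against 0.552% of all genes. The 6 oligodendrocyte markers were higher in mice labelled FMN2-/-_APP at an unadjusted p under 0.05. Their summed levels were 1642 to 2897 against 1208 to 1943 CPM, with none called by edgeR. The 4 choroid plexus markers were lower at a median log2 value of -3.00 with 0 called. Their sums had close medians, 69.5 against 81.9 CPM, but ran up to 116 CPM in mice labelled FMN2-/-_APP and 9113 in mice labelled FMN2 +/+ APP. C1ql2 was called higher, at 0.59, and in 5 of 8 alternative settings. The 3 oligodendrocyte precursor markers were all higher, and 1 of them, Olig2, was called by edgeR and in 7 of 8 alternative settings. The part of these markers in the subunit differences was not tested.

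The amyloid transgene was compared with wild type in the mice titled prefrontal cortex. Of the 10 genes 0 were called by edgeR, against 3.81% of 16733 genes, and 2 had an unadjusted p under 0.05, Grin3a and Grin2a, against 14.3%. DESeq2 called 1, Grin3a, against 5.01%. Grin3a had a lowest value of 48.5, a median of 53.3 and a highest of 58.8 CPM in APP mice and of 38.8, 47.0 and 50.7 in wild-type mice. The groups overlapped only at their edges, and the difference was 0.23 (SE 0.0653; edgeR adjusted p = 0.0569). Grin2a read 178, 185 and 205 CPM against 182, 207 and 228, a difference of -0.13 (SE 0.0565; edgeR adjusted p = 0.273). The 4 AMPA genes differed by at most 0.051 on the log2 scale in either direction. Gria1, with 432 to 487 against 406 to 494 CPM, had a 95% interval of -0.053 to 0.13. None of the 10 genes separated the groups without overlap, against 3.26% of all genes.

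The 4 lists of partner genes held 3 calls in this comparison, beside the 3.81% of all genes called. Of 16 auxiliary genes edgeR called 2, both lower in APP mice, Cacng2, which encodes stargazin, at -0.36 (adjusted p = 0.000837) and Cacng7 at -0.20 (adjusted p = 0.0291). Of 20 scaffold genes it called 1, Homer1, at -0.45 (adjusted p = 0.0438), and of 7 kainate and delta and 7 metabotropic receptor genes 0. DESeq2 did not call Homer1 (adjusted p = 0.0625). Microglial markers moved with the transgene, with 5 of 5 higher and summed levels of 356 to 452 against 233 to 251 CPM, and Gfap, the astrocyte filament gene, rose by 2.10. Oligodendrocyte markers summed to 1359 to 2080 CPM in APP and 2208 to 6205 CPM in wild-type mice. All APP libraries were sequenced in lane 7 and all wild-type libraries in lane 5, so lane and transgene cannot be told apart.

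Over the 46 mice, once group means were taken out, some subunit genes varied together, as a description of libraries that share depth and base composition effects. Pearson's r was 0.75 for Gria3 with Grin2b, 0.72 for Gria1 with Gria2 and 0.69 for Grin2a with Grin2b. It was negative for Gria4 with Grin2a, at -0.64, and for Gria1 with Gria4, at -0.58. Without the mouse labelled FMN2-/-_APP replicate 7 the values were 0.73, 0.60, 0.66, -0.51 and -0.39. Among 18923 genes, the gene most like Grin2b was Nbea, which encodes neurobeachin, with r = 0.91. Gria1 and Gria2 were each most like Plppr4, at 0.88 and 0.87, Gria3 most like Sbno1 at 0.83 and Gria4 most like Vwc2 at 0.85. For the other NMDA genes, the nearest were Ints1 for Grin1 at 0.85, Celf2 for Grin2a at 0.83, Shank1, a postsynaptic scaffold, for Grin2c at 0.73, Gnas for Grin2d at 0.84 and Ahi1 for Grin3a at 0.79. Without that mouse these values ran from 0.68 for Grin3a to 0.90 for Grin2b.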

How the data were processed

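From TruSeq libraries of mRNA, the authors mapped reads to mm10 by STAR, assigned them to genes by HTSeq and deposited the raw counts per Ensembl gene, which were used unchanged. The 2 runs of each mouse with a repeat run were summed. Library totals ran from 6818809 to 43921030 reads, and Grin2d at 8 months, the least abundant subunit, rested on as few as 37 reads. Groups were taken from the labels. Symbols, exon length and GC content came from GENCODE M21, with GC content taken from the longest transcript of each gene.

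Each comparison was fitted over all genes kept by filterByExpr with TMM scaling and edgeR 4.0.16 (R 4.3.3) quasi-likelihood tests, Benjamini-Hochberg adjustment and a threshold of 0.05. A standard error is the log2 fold change divided by the square root of F, and a 95% interval is not adjusted. The interval uses the multiplier of a normal distribution, so it is somewhat narrower than the F test with few mice would give. CPM in the text used one TMM scale over all mice. All 10 subunit genes are given; of partner and marker lists, at most 4 called genes with the largest change are named. The members and lists were chosen with earlier results of these data known. Alternatives were DESeq2 1.42.0, RLE scaling, no filter, a fold minimum of 0.25, a spline correction for GC content and length, lane, replicate block, all groups in 1 fit, both alike 8-month replicates summed, and single mice left out. The pore-loop stretch of Grin3a was not found by the search, and that of 1 other gene is not reported here.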

Additional observations from a re-analysis of the deposited data

Results flagged for a closer look

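In 9 of 70 sets of a subunit gene and a group of 4 to 10 mice, 1 mouse lay far from the others by Dixon's criterion, where chance gives about 1 in 20. The mouse labelled FMN2 +/+ APP replicate 8 accounted for 4 of them, with Gria1 at 1316 CPM (next 1204), Grin2a at 403.8 (next 301.5), Grin2b at 535.1 (next 421.3) and, on the low side, Grin2d at 3.455 (next 6.401). The mouse labelled FMN2-/-_APP replicate 7 is the library with the highest Slc17a6 and Tcf7l2. In its group it held the highest Grin2d at 17.34 CPM (next 8.957) and the highest Grin3a at 67.57 (next 48.36). At 3 months, Gria2 was low in Fmn2-/- replicate 2 at 906.3 CPM (next 1066), Grin2a was high in Fmn2-/- replicate 1 at 395.1 (next 335.6), and Grin2d was low in Fmn2+/+ replicate 4 at 5.942 (next 8.671).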

How the results depend on the processing

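Of 990 log2 fold changes of subunit genes under alternatives, 906 kept their direction and side of the threshold and 57 turned direction (1 of them called both ways). Of those that kept their direction, 20 gained a call and 7 lost one. Grin2c between tissues in APP mice both turned direction and lost its call, with the GC and length correction. Where no value is given, the cause was not tested. With the replicate block the counts of called subunit genes were 0 in each comparison within a tissue and 9 in both tissue comparisons. Between mice with the same replicate number, mean r ran from -0.034 to 0.074, and single pairs in the cross from -0.262 to 0.268. These values cannot settle whether such mice share more than a number. The block turned the interaction of Grin2a to 0.11 and, in the cross, Gria3 to 0.023 and Grin2d to -0.061. DESeq2 called 2 genes at 8 months, 1 in the interaction, 1 in the cross and 1 for the transgene; no filter on low counts gave 2 at 8 months and 1 for the transgene; all groups in 1 fit gave 1 at 8 months and 1 in the cross. Chosen after seeing the data, leaving out the mouse labelled FMN2-/-_APP replicate 7 gave 1 in the cross, with Grin2d at -0.14, while leaving out the mouse labelled FMN2 +/+ APP replicate 8 or the 3 choroid-rich libraries labelled FMN2 +/+ APP gave 0.

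At 3 months Grin1 turned to 0.0028 without the filter, Gria2 to 0.065 and Gria3 to 0.040 with the GC and length correction, and Grin2d to 0.16 with lane. At 8 months Grin2a, near 0, turned to -0.0022 with DESeq2, -0.0020 with RLE, -0.0046 without the filter, -0.17 with the GC and length correction, -0.0066 with all groups, -0.021 with lane and -0.055 with replicates 2 and 3 summed; the GC and length correction also turned Gria4 to -0.0017, Grin2c to 0.16 and Grin2d to 0.049, and lane turned Gria1 to 0.054, Grin2c to 0.15 and Grin2d to 0.022. The GC and length correction turned the interaction of Gria3 to -0.033, Grin2c to 0.0088 and Grin2d to 0.20, the transgene value of Grin2d to 0.010, and between tissues Grin1 to -0.14 in wild-type mice and Grin2c to -0.021 and Grin3a to -0.072 in APP mice. All groups in 1 fit turned Grin3a to 0.0067 between tissues in wild-type mice and left Grin2b at 0.18 without a call. The mean Gria1 to Gria2 log2 ratio moved with the correction to 0.27 in Fmn2+/+ mice at 3 months, 0.14 in Fmn2-/- mice at 8 months, -0.10 in mice labelled FMN2-/-_APP and -0.12 in mice labelled FMN2 +/+ APP.

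Leaving out single mice gave 0 to 4 called genes at 8 months and in the interaction, 4 in both without the Fmn2+/+ replicate 2, and 8 to 9 between tissues in wild-type mice. Direction turned within these ranges for Gria1 (-0.014 to 0.057), Grin1 (-0.061 to 0.046), Grin2a (-0.018 to 0.077) and Grin2d (-0.16 to 0.0088) at 3 months, Gria1 (-0.099 to 0.053), Grin2a (-0.084 to 0.11), Grin2c (-0.18 to 0.15) and Grin2d (-0.34 to 0.022) at 8 months, Gria1 (-0.12 to 0.020), Grin2a (-0.12 to 0.067) and Grin2d (-0.27 to 0.073) in the interaction, Grin2d (-0.14 to 0.084) in the cross and Grin3a (-0.080 to 0.017) between tissues. Lane could not be entered for the transgene, because it equals genotype there. Within 8 months it only takes out the Fmn2+/+ replicate 1, so its values nearly repeat the fit without that mouse. Depth limits Grin2d most.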
